A study of Mus musculus with 56 samples.

Results

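The Period genes Per1, Per2 and Per3 encode the PER proteins, repressors of the mammalian circadian clock. The members were taken by symbol from the heart transcript table, and all 3 were found among the 22863 genes used and passed the filter that left 13872 genes for testing. PER proteins bind the cryptochromes and, in the nucleus, inhibit the activator pair CLOCK and BMAL1 (the product of Arntl), which drives transcription from E-box elements, the Period promoters included. The delay between Period transcription and the return of PER proteins to the nucleus is a core part of the daily feedback loop. Per1 and Per2 are also known as acutely inducible genes, with response elements for cAMP signalling and for the glucocorticoid receptor, whereas Per3 is commonly regarded as dispensable for rhythm generation.

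PolyA RNA was sequenced from whole hearts of female C57BL/6J mice aged 9 weeks, housed in a cycle of 12 h light and 12 h dark. Mice were fed for 7 days during the day (daytime-restricted feeding, DRF) or during the night (nighttime-restricted feeding, NRF, the control regimen), with no genetic change or drug in either group. Collection was every 4 h at 7 zeitgeber times (ZT), counted in hours from lights on and running from ZT0 through ZT24. Each of the 14 groups had 4 replicates, which gave 56 libraries. The labels do not say whether a replicate is 1 animal or a pool, so p-values measure the spread between these samples. The question was how far the time courses of the Period transcripts follow the light cycle or the time of food when the 2 are set apart.

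In GRCm38, Per1 (ENSMUSG00000020893) lies on the plus strand at chr11:69095217-69109960, with 5631 exonic bases. Per2 (ENSMUSG00000055866) lies on the minus strand at chr1:91415982-91459324, with 5856 exonic bases. Per3 (ENSMUSG00000028957) lies on the minus strand at chr4:151003652-151044665, with 9608 exonic bases, and its span overlaps Camta1 on the same strand with 0 shared exonic bases. No other annotated gene overlapped a Period gene.

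The promoters are shown because the clock reaches these genes through short elements near the start sites. The RefSeq promoter table used here, for GRCm38.p6, held 2 start sites of Per1, 1203 bases apart, and 1 of Per3, and a Per2 window was not analysed here. The 250 bases before each start were searched on both strands for the E-box CACGTG, the E'-box CACGTT, the D-boxes TTATGTAA and TTACGTAA (the element of DBP, TEF, HLF and NFIL3), the cAMP response element TGACGTCA and the first bases of that element, TGACG, which overlap it. Matches are in capitals and sequences run 5′ to 3′ on the strand of the gene.
Per1 upstream start, plus strand, chr11:69098699-69098948: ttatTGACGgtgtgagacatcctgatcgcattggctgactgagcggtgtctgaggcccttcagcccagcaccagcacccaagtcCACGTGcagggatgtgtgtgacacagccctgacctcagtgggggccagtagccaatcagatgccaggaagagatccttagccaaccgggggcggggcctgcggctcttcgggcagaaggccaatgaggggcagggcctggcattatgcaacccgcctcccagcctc
Per1 downstream start, plus strand, chr11:69099902-69100151: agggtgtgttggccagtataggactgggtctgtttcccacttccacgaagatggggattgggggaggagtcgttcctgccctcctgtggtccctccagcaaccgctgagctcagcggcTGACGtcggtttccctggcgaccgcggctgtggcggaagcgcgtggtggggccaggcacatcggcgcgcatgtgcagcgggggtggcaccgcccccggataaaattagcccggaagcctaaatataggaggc
Per3, minus strand, chr4:151044666-151044915: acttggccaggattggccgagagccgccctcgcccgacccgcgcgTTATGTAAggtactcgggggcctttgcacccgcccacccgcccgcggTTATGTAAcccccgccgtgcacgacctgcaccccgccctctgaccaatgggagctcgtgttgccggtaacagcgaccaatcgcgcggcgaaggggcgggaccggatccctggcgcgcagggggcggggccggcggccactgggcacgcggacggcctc

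The upstream Per1 window held CACGTG, 166 to 161 bases before the start, and TGACG, 246 to 242 bases before it. The downstream Per1 window held TGACG, 132 to 128 bases before the start. The Per3 window held the D-box TTATGTAA in 2 places, 205 to 198 and 158 to 151 bases before the start. Among 32817 windows of the same length, 6.02% held CACGTG, 3.85% held CACGTT, 0.817% held TTATGTAA, 0.113% held TTACGTAA, 1.55% held TGACGTCA and 17.7% held TGACG. A match is a description of the letters, and no match says only that they are not in these windows.

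Levels are given as TPM (a transcript measure, reads per exonic base with all libraries set to an equal total), recomputed from recovered whole reads. The 56 libraries held 29576608 to 53510621 reads (median 37773611), and the reads of the Period genes ranged from 52 (Per2, NRF) to 5107 (Per1, NRF). Under NRF the 5 cardiomyocyte markers (Myh6, Tnnt2, Actc1, Pln and Ryr2) summed to 17280 to 25100 TPM, and under DRF to 14130 to 20360 TPM, with none at 0, so the tissue label held. In whole heart, fewer cells of a type and less RNA per cell cannot be told apart. No date, lane or batch of sequencing is given in the labels.

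All 3 Period genes rose toward lights off under NRF. Per1 was the most abundant per length, above Per3 in 28 of 28 libraries and above Per2 in 24 of 28 in each regimen. Per2 was above Per3 in 20 of 28 libraries under NRF and in 18 of 28 under DRF. Per2 exceeded Per1 only in 2 of 4 libraries at ZT16 and at ZT20 under NRF, and in 3 of 4 at ZT12 and 1 of 4 at ZT16 under DRF.

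**Figure D1:**
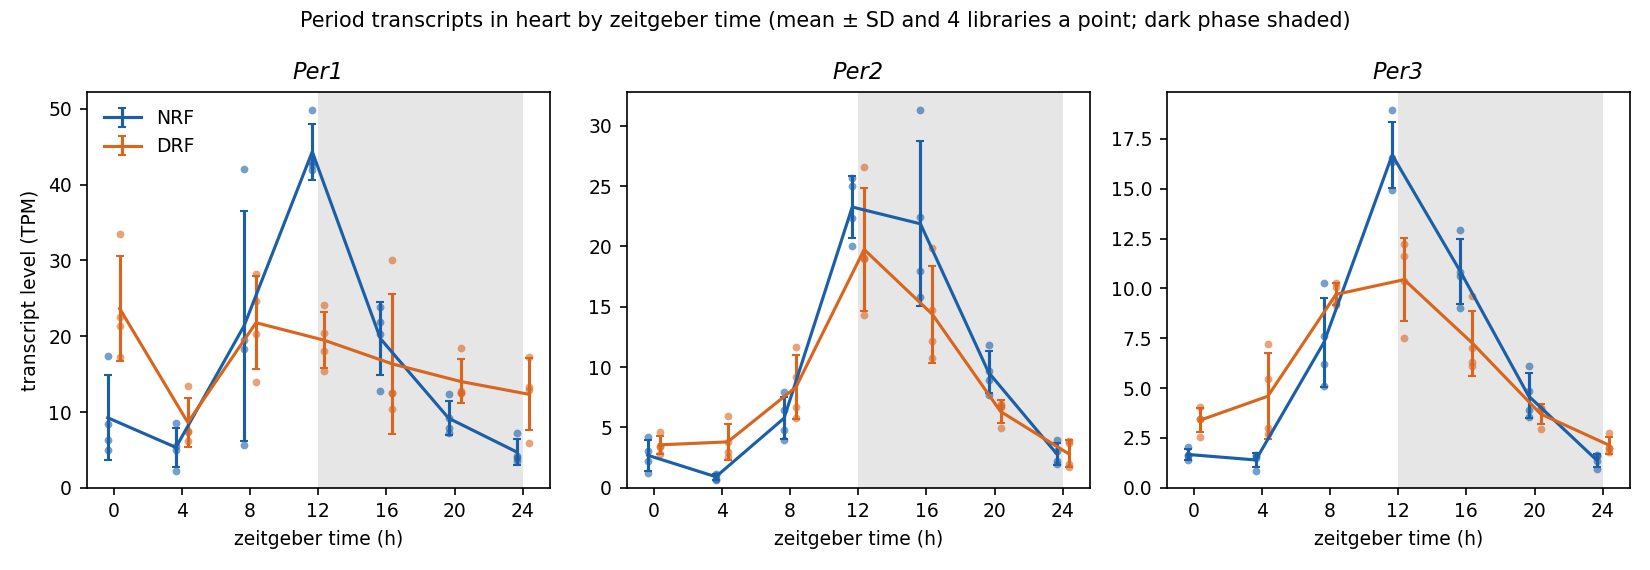
Transcript level (TPM, linear axis) of Per1, Per2 and Per3 against zeitgeber time (h); points are libraries, lines join the means of 4 replicates, bars are SD, blue is NRF, orange is DRF and the dark phase is shaded. Per1 reached 44.3 TPM at ZT12 under NRF and 19.5 under DRF, while Per2 and Per3 kept their highest mean at ZT12 in both regimens.

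Per1 under NRF had its highest level at the start of the dark phase. At ZT12 the 4 libraries held 43.0, 41.9, 49.8 and 42.6 TPM, a mean of 44.3 ± 3.69 (SD, n = 4). At ZT24 they held 7.17, 4.24, 3.93 and 3.54 TPM, a mean of 4.72 ± 1.66, so the highest mean was 9.39 times the lowest. The groups at ZT12 and ZT24 were far apart, whereas the 4 libraries at ZT8 spread over 5.60, 18.3, 19.5 and 42 TPM and reached into the range of ZT12.

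Per1 under DRF had high group means at both ZT0 and ZT8. The highest mean was at ZT0, with 17.3, 33.5, 22.5 and 21.3 TPM (23.7 ± 6.91). At ZT4 the libraries held 13.4, 7.46, 6.20 and 7.37 TPM (8.61 ± 3.26), all below those of ZT0. At ZT8 they held 20.3, 14, 28.2 and 24.6 TPM (21.8 ± 6.12). From there the group means were 19.5 ± 3.67 TPM (ZT12), 16.3 ± 9.18 (ZT16), 14 ± 2.90 (ZT20) and 12.3 ± 4.72 (ZT24), and the highest mean was 2.75 times the lowest.

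Per2 had its highest group means at ZT12 and ZT16 in both regimens. Under NRF it held 25, 20.002, 25.7 and 22.4 TPM at ZT12 (23.3 ± 2.61) and 1.09, 0.643, 1.19 and 0.747 TPM at ZT4 (0.917 ± 0.263). Under DRF it held 19.1, 19, 14.3 and 26.6 TPM at ZT12 (19.7 ± 5.08) and 5.92, 2.54, 3.81 and 2.96 TPM at ZT4 (3.81 ± 1.51). The 2 regimens overlapped at ZT12 but not at ZT4, where every DRF library was above every NRF library. The highest mean was 25.4 times the lowest under NRF and 7.00 times under DRF.

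Per3, the least abundant of the family per length, had its highest mean at ZT12 in both regimens. At ZT12 it held 16.4, 14.9, 18.9 and 16.5 TPM under NRF (16.7 ± 1.67) and 12.2, 11.6, 7.53 and 10.4 TPM under DRF (10.4 ± 2.09). At ZT4 it held 0.849, 1.61, 1.47 and 1.65 TPM under NRF (1.40 ± 0.373) and 7.23, 2.70, 5.45 and 3.00 TPM under DRF (4.59 ± 2.15). The regimens overlapped at neither of these times, with DRF lower at ZT12 and higher at ZT4. The highest mean was 12.1 times the lowest under NRF and 4.86 times under DRF.

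A 24-h cosine was fitted to log2(TPM + 1) in each regimen, and its amplitude (the distance from the fitted mean to the fitted peak) was tested with limma and Benjamini-Hochberg adjustment over all 13872 genes. Under NRF the fit called 37.3% of all genes and each of the 3 Period genes, with amplitudes of 1.27 ± 0.164 (SE) for Per1, 1.80 ± 0.0997 for Per2 and 1.48 ± 0.0746 for Per3 (adjusted p = 2.81e-06, 2.47e-13 and 8.69e-15). Under DRF it called 32.5% of all genes, Per2 with an amplitude of 1.17 ± 0.0953 (adjusted p = 4.98e-10) and Per3 with 0.86 ± 0.0738 (adjusted p = 7.55e-09). Per1 was not called under DRF, with an amplitude of 0.22 ± 0.165 and limma's adjusted p = 0.471. Without ZT0 the Per1 amplitude under DRF was 0.46 and passed the test (limma adjusted p = 0.0401).

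The difference in rhythm between regimens, tested directly as the interaction of regimen with the cosine and sine terms, was called for 27.6% of all genes and for all 3 Period genes. The difference had an amplitude of 1.05 for Per1, 0.85 for Per2 and 0.86 for Per3 (limma adjusted p = 0.00117, 4.78e-05 and 1.3e-07). The Per1 call was lost without replicate 2 (amplitude 0.90, adjusted p = 0.052) and without ZT12 (0.86, adjusted p = 0.089). The Per2 and Per3 calls kept their side of the threshold in every alternative run.

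Fitted peaks of Per2 and Per3 came earlier under DRF. Per2 peaked at ZT14.8 under NRF (95% interval 14.4 to 15.2) and at ZT13.3 under DRF (12.6 to 14), a shift of -1.50 h (-2.31 to -0.682). Per3 peaked at ZT13.3 under NRF (12.9 to 13.8) and at ZT11.3 under DRF (10.5 to 12.0), a shift of -2.07 h (-2.92 to -1.22). In a permutation test of regimen labels within each ZT (100000 draws, two-sided, adjusted over 6 tests of 3 genes and 2 quantities), adjusted p was 0.000852 for Per2 and 0.00014 for Per3. Its null hypothesis is that regimen labels can be exchanged, which covers phase and amplitude together, so a small p need not belong to phase alone. Per1 peaked at ZT12.8 under NRF (11.7 to 13.9). Its fitted DRF peak at ZT13.1 had an interval from 6.54 to 19.6 h, so the timing of Per1 under DRF was not determined by the fit. The Per1 shift of 0.28 h (-6.35 to 6.91, adjusted permutation p = 0.841) became -4.89 h without ZT4 and 4.11 h without ZT8.

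Amplitudes fell under DRF in all 3 genes. The log2 ratio of the DRF amplitude to the NRF amplitude was -2.56 for Per1 (95% interval -4.81 to -0.307), -0.63 for Per2 (-0.916 to -0.344) and -0.78 for Per3 (-1.07 to -0.493). The adjusted permutation p values were 9e-05, 0.000345 and 9e-05. On the amplitude scale itself Per1 fell by 1.05, Per2 by 0.64 and Per3 by 0.62 (log2).

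**Figure D2:**
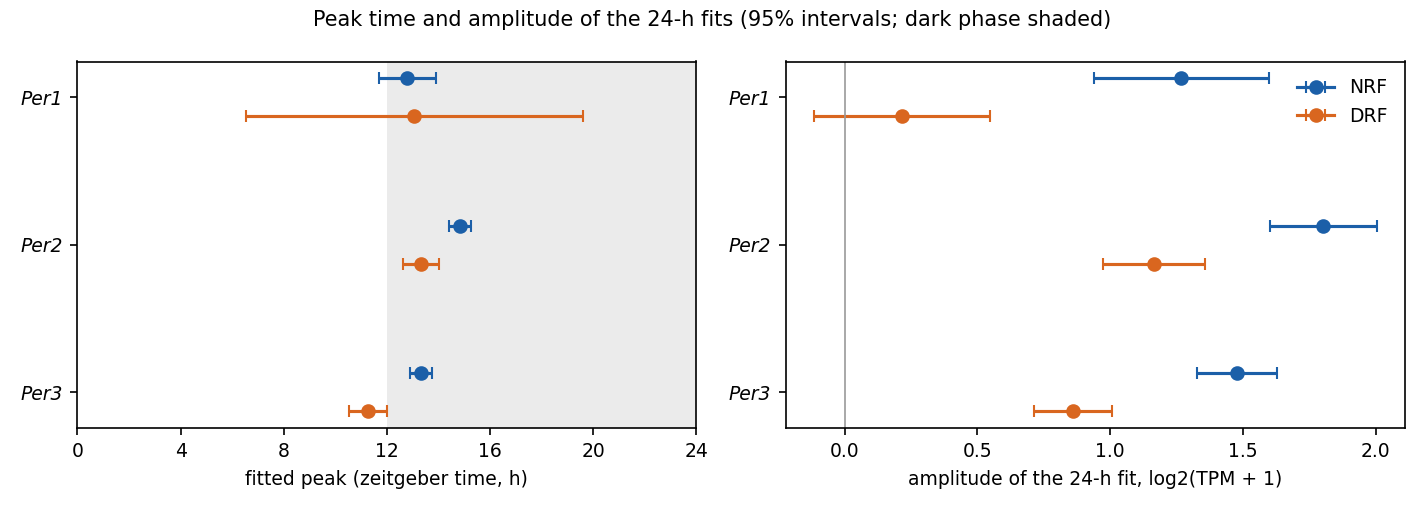
Fitted peak time (zeitgeber time, h, left) and amplitude (log2(TPM + 1), right) of the 24-h fits for Per1, Per2 and Per3, with 95% intervals; blue is NRF, orange is DRF and the dark phase is shaded. The DRF amplitude of Per1 has an interval that reaches below 0, which an amplitude cannot do, so that interval is only approximate. The DRF amplitude intervals of Per2 and Per3 lie below their NRF intervals.

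Set against each other, the 3 genes were compared in 3 pairs and 2 quantities, with permutation p values adjusted over 6. The null hypothesis of these permutations is that regimen labels can be exchanged for both genes of a pair. Amplitude differed between regimens for each gene alone, so a small p here need not mean that the genes of a pair differ. The estimated log2 amplitude ratio of Per1 was lower than that of Per2 (difference -1.93, adjusted permutation p = 0.00048). It was also lower than that of Per3 (difference -1.78, adjusted permutation p = 0.00048). The fitted intervals of these differences, -4.10 to 0.246 and -3.92 to 0.372, include 0, since a ratio with the small DRF amplitude of Per1 is imprecise. On the amplitude scale Per1 lost 0.41 more than Per2 (difference -0.41, interval -0.871 to 0.0416). It lost 0.43 more than Per3 (difference -0.43, interval -0.848 to -0.0211), and this interval just excluded 0. These intervals are not adjusted for the 3 pairs, and the pairs were compared only on log2(TPM + 1). With 0.1 in place of 1 added to TPM, the NRF and DRF amplitudes were 1.37 and 0.23 for Per1. They were 2.16 and 1.33 for Per2, and 1.82 and 1.015 for Per3. The pair differences were not tested on that scale.

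Per2 and Per3 were not separated by their response. Their log2 amplitude ratios differed by 0.15 (interval -0.114 to 0.417, adjusted permutation p = 0.295), and their phase shifts by 0.576 h (-0.163 to 1.31, adjusted p = 0.172). Within a regimen Per2 peaked after Per3, by 1.48 h under NRF (1.11 to 1.85) and by 2.06 h under DRF (1.41 to 2.70). Under NRF Per1 peaked before Per2 (difference -2.03 h, interval -3.09 to -0.974) and not detectably apart from Per3 (difference -0.551, interval -1.52 to 0.422). Phase shifts of Per1 differed from those of Per2 by 1.78 h (adjusted permutation p = 0.172) and of Per3 by 2.35 h (adjusted p = 0.0683), and both differences carry the undetermined DRF peak of Per1.

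The mean level over the day was not called in any of the 3 genes. DRF minus NRF was 0.21 ± 0.138 (SE) for Per1, 0.07 ± 0.0933 for Per2 and 0.10 ± 0.0708 for Per3 on the log2 scale (limma adjusted p = 0.252, 0.596 and 0.29), beside 25.8% of all genes called. Over the 28 libraries of each regimen Per1 averaged 16.3 TPM under NRF and 16.6 under DRF, Per2 9.56 and 8.43, and Per3 6.27 and 5.89. For Per2 and Per3 the linear means were thus lower under DRF and the log2 means higher, so the direction depended on the scale. Limma voom on recovered reads gave a Per3 difference of 0.23 that passed the test (adjusted p = 0.0476).

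A test with no assumed shape, among the 7 group means of each regimen, called 31.9% of all genes under NRF and 36.2% under DRF. Under DRF it called Per1 too (range of the means 1.37, limma adjusted p = 0.0204), along with Per2 (2.46) and Per3 (1.85, adjusted p = 3.37e-11 for both). The Per1 call was lost without the third library at ZT4 under DRF (adjusted p = 0.0604). It was also lost without replicate 2 (0.17), 3 (0.258) or 4 (0.0593) of all groups. A 12-h component added to the 24-h fit was called by limma in 0% of genes under NRF and in 0.209% under DRF. An unadjusted p under 0.05 was found for 805 genes under NRF and 2519 under DRF. For Per1 the 12-h amplitude was 0.42 under DRF (limma unadjusted p = 0.0232, adjusted p = 0.219) and 0.42 under NRF (0.0351 and 0.839). Under NRF it was 0.31 for Per2 (limma unadjusted p = 0.00348) and 0.22 for Per3 (0.00538), neither called. Under DRF these were 0.09 and 0.08. Without replicate 1 the 12-h amplitude of Per1 under DRF was 0.67 (limma adjusted p = 0.0206).

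ZT0 and ZT24 are the same clock time 1 day apart. None of the Period genes was called between them by limma, beside 0.0577% of all genes under NRF and 0.469% under DRF. Per1 under DRF held 5.88, 13.0, 17.2 and 13.3 TPM at ZT24 against 17.3 to 33.5 at ZT0. These ranges did not overlap, with a ZT24 minus ZT0 difference of -0.93 ± 0.363 (unadjusted p = 0.0136, limma adjusted p = 0.261). Limma gave an unadjusted p under 0.05 also for Per3 under DRF (-0.48) and for Per1 under NRF (-0.74), with adjusted p = 0.248 and 0.536.

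At single zeitgeber times the regimens were compared gene by gene with limma, the 14 groups sharing 1 estimate of spread. DRF and NRF libraries did not overlap in 8 of the 21 combinations of Period gene and ZT, beside 13.2% of all combinations of tested gene and ZT. Per1 was called at 3 of 7 times, Per2 at 1 and Per3 at 3, beside 0.389% (ZT8) to 14.8% (ZT20) of all tested genes at a time.

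In the light phase the called differences were higher levels under DRF. At ZT0 (11.4% of all genes called) Per1 was higher under DRF by 1.37 ± 0.363 (SE, log2), a ratio of mean TPM of 2.56 (limma adjusted p = 0.00941), and Per3 by 0.71 ± 0.18, a ratio of 2.02 (adjusted p = 0.00697). The NRF libraries of Per1 at ZT0 held 8.41, 4.94, 6.31 and 17.3 TPM, and the highest of them reached into the DRF range. The Per3 libraries at ZT0 held 3.46, 4.03, 3.47 and 2.57 TPM under DRF and 2.04, 1.60, 1.66 and 1.39 under NRF, with no overlap. Both calls were lost without replicate 2 (adjusted p = 0.197 for Per1 and 0.0664 for Per3) and without replicate 3 (0.126 and 0.0558), and neither was lost without any single library. Per2 at ZT0 was not called (0.35 ± 0.237, adjusted p = 0.366).

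At ZT4, 0.447% of all genes were called, Per2 and Per3 among them. Per2 was higher under DRF by 1.29 ± 0.237 (ratio of means 4.15, limma adjusted p = 0.00211) and Per3 by 1.16 ± 0.18 (ratio 3.29, adjusted p = 0.000199), and both calls held without any single library. Per1 differed by 0.65 ± 0.363 with overlapping groups (adjusted p = 0.481). At ZT8 (0.389% of all genes called) no Period gene was called, with differences of 0.27, 0.46 and 0.40 for Per1, Per2 and Per3. The Per1 difference at ZT8 turned to -0.22 without replicate 1 of NRF and rose to 0.68 without replicate 4 of NRF, so its direction rests on single libraries.

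At dark onset Per1 and Per3 were lower under DRF. At ZT12 (7.68% of all genes called) Per1 was lower under DRF by 1.16 (difference -1.16 ± 0.363, limma adjusted p = 0.0386), with 15.4, 18, 20.4 and 24.1 TPM, all below the NRF libraries. Per3 was lower too (-0.64 ± 0.18, adjusted p = 0.0213), and Per2 was not called (-0.25, adjusted p = 0.553). The Per1 call was lost without any library of the 2 groups other than replicate 4 of DRF (adjusted p up to 0.116), at differences of -1.19 to -1.06. The Per3 call was lost without replicate 3 of DRF (adjusted p = 0.132) or of NRF (0.0872).

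At ZT16 and ZT20 no Period gene was called. At ZT16 (6.9% of all genes called) the differences were -0.34, -0.56 and -0.53 for Per1, Per2 and Per3. Per1 at ZT16 under DRF held 30.03 TPM in replicate 1 and 10.3, 12.5 and 12.5 in the others. Without this library the Per1 difference at ZT16 was -0.66 and still not called, and Per3 passed the test there (also -0.66, limma adjusted p = 0.0239). At ZT20 (14.8% called) Per1 stood higher under DRF without overlap (12.5, 12.7, 12.5 and 18.4 against 7.91, 7.21, 9.25 and 12.4 TPM) and Per2 lower without overlap (4.92, 6.80, 6.91 and 6.68 against 11.9, 9.72, 8.97 and 7.72 TPM). Neither difference passed the test (0.57 and -0.52, limma adjusted p = 0.295 and 0.126). At ZT24 (8.88% called) Per1 was higher under DRF by 1.18 ± 0.363 (ratio 2.61, adjusted p = 0.0326), a call lost without any library of the 2 groups other than replicate 1 of each (adjusted p up to 0.124). Per3 at ZT24 was higher without overlap but not called (0.40, adjusted p = 0.155), and Per2 differed by -0.02.

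**Figure D3:**
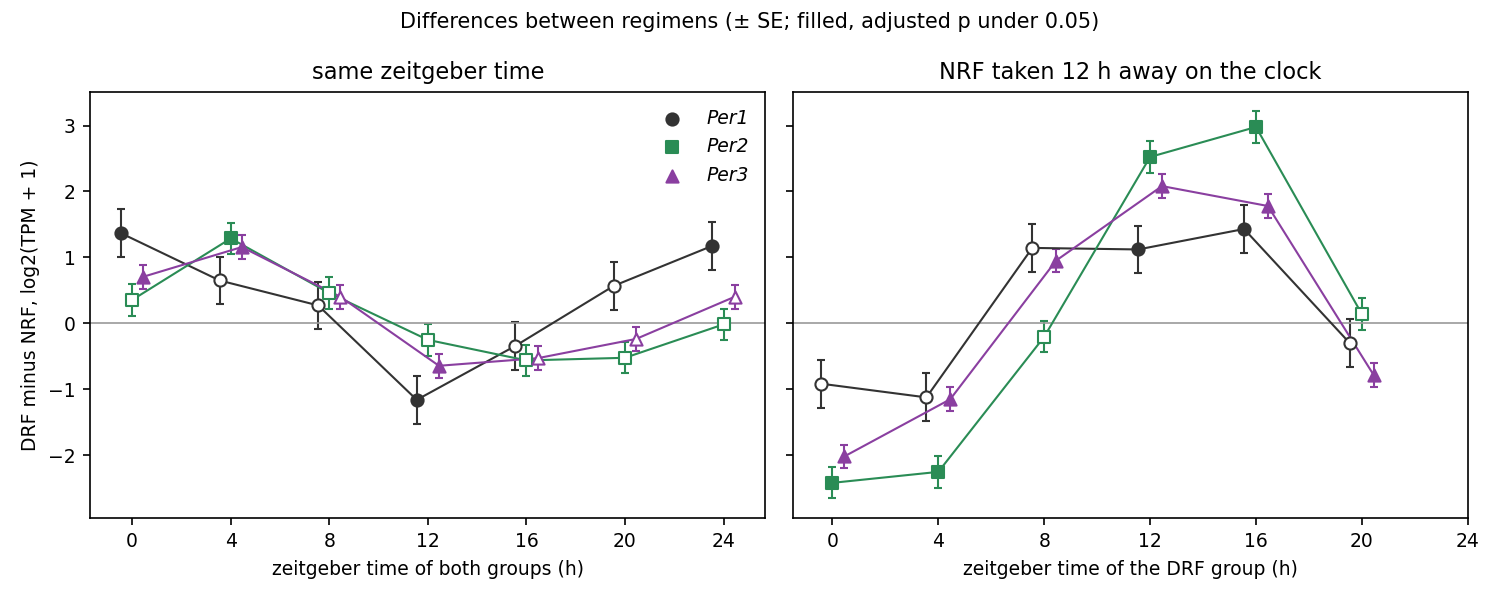
DRF minus NRF on the log2(TPM + 1) scale (± SE) for Per1 (circles), Per2 (squares) and Per3 (triangles), at the same zeitgeber time (left) and with the NRF group taken 12 h away on the clock (right); filled symbols have an adjusted p under 0.05. The largest differences of Per2 are on the right, at 2.98 and 2.52, against 1.29 on the left.

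To read the same libraries by food, each DRF group was set against the NRF group 12 h away on the clock, so that both had the same distance from the start of their feeding phase. The hours of food access are not in the labels, and feeding was taken to start at lights on under DRF and at lights off under NRF. These comparisons use the same libraries as those above. Per3 was called in 6 of 6, Per2 in 4 of 6 and Per1 in 2 of 6, beside 5.58% to 24.1% of all tested genes in a comparison. The median absolute log2 difference over 6 times was 2.34 for Per2, 1.47 for Per3 and 1.12 for Per1 in this alignment, and 0.49, 0.59 and 0.61 at the same ZT (ZT24 left out). These medians were taken for the Period genes alone and have no value over all tested genes beside them.

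At the start of the feeding phase, DRF ZT0 against NRF ZT12 (6.18% of all genes called), Per2 differed by -2.42 ± 0.237 and Per3 by -2.02 ± 0.18 (limma adjusted p = 5.03e-10 and 5.13e-11). Per1 differed by -0.92 ± 0.363 and was not called (adjusted p = 0.127). Food-matched levels of Per1 were thus 23.7 TPM under DRF and 44.3 under NRF at this point. After 4 h (6.49% called) Per2 differed by -2.25 and Per3 by -1.15 (adjusted p = 3.07e-09 and 1.59e-05), and Per1 by -1.12 (adjusted p = 0.0507). After 8 h (5.58% called) only Per3 was called (0.95, adjusted p = 0.000776), with Per1 at 1.14 (adjusted p = 0.0508) and Per2 at -0.20. Both of these Per1 differences passed with median-of-ratios scaling (limma adjusted p = 0.0275 after 4 h and 0.0234 after 8 h), with limma voom (0.0379 and 0.0288), on the deposited values (0.0328 and 0.0307), with a replicate block (0.0408 and 0.0413) and without replicate 1 (0.00142 and 0.031), and each also without either of 2 single libraries. In 11 of 18 alternatives each stayed uncalled, with limma adjusted p up to 0.385 after 4 h and 0.356 after 8 h.

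At the start of the fasting phase, DRF ZT12 against NRF ZT0 (9.55% called), all 3 genes were higher under DRF. The differences were 1.12 for Per1, 2.52 for Per2 and 2.08 for Per3 (limma adjusted p = 0.0409, 1.21e-10 and 1.37e-11), and the Per1 call was lost without any library of the 2 groups other than replicate 4 of NRF (adjusted p up to 0.131). After 4 h of that phase (23% called) the differences were 1.43, 2.98 and 1.78 (adjusted p = 0.00346, 2.11e-12 and 7.26e-10). After 8 h (24.1% called) only Per3 was called (-0.79, adjusted p = 0.00149), with Per1 at -0.30 and Per2 at 0.14. This Per1 difference was -0.79 without replicate 1 and 0.11 without replicate 4 of NRF ZT8.

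Replicates of Per1 spread more than those of the other Period genes. The SD of log2(TPM + 1) within groups was 0.53 for Per1, 0.35 for Per2 and 0.26 for Per3, against a median of 0.14 over all tested genes. Among genes within 0.25 log2 of the same mean level, 99.1% had a smaller SD than Per1, 95.6% than Per2 and 87.7% than Per3. By regimen the SD of Per1 was 0.60 under NRF and 0.45 under DRF. The deviations of libraries from their group means had a Pearson r of 0.677 between Per2 and Per3, 0.384 between Per1 and Per3 and 0.278 between Per1 and Per2 (56 libraries). These correlations are descriptions, and genes of a library share its depth and preparation.

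Over the 56 libraries, all time points and both regimens included, the genes most like Per2 and Per3 included clock output genes. Tef and Hlf, transcription factors of the PAR bZIP family that bind D-boxes, led for Per3 (r = 0.987 and 0.962), followed by Per2 (0.897), Tspan4 (0.894) and Cry2 (0.878). For Per2 they were Tef (0.91), Cys1 (0.909), Wee1, a kinase that restrains entry into mitosis (0.902), Per3 (0.897) and Maco1 (0.888). Tef peaked at ZT13.5 under NRF and ZT11.6 under DRF, with amplitudes of 1.24 and 0.66.

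The genes most like Per1 were others. They were Tob2 (r = 0.882), Adamtsl4 (0.863), Mylip, a ubiquitin ligase that acts on the LDL receptor (0.848), Klf9, a Kruppel-like transcription factor induced by glucocorticoids (0.848), and Fam76a (0.83). Per3 ranked 33rd for Per1 (0.754) and Per2 ranked 156th (0.646) of 13871 genes. Under NRF all 5 were called rhythmic, with peaks from ZT11.9 to ZT13.2 and amplitudes from 0.27 to 0.58, and under DRF 1 of 5 was (Fam76a, 0.10). Over all tested genes the shares were 37.3% and 32.5%. These 5 were picked by likeness to Per1 over the same libraries, so both counts follow largely from that choice. By regimen, r between Per1 and Per3 was 0.865 under NRF and 0.421 under DRF, between Per1 and Per2 0.737 and 0.431, and between Per2 and Per3 0.922 and 0.844 (28 libraries each). Likeness says nothing of shared control, and all points share the time of day.

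**Figure D4:**
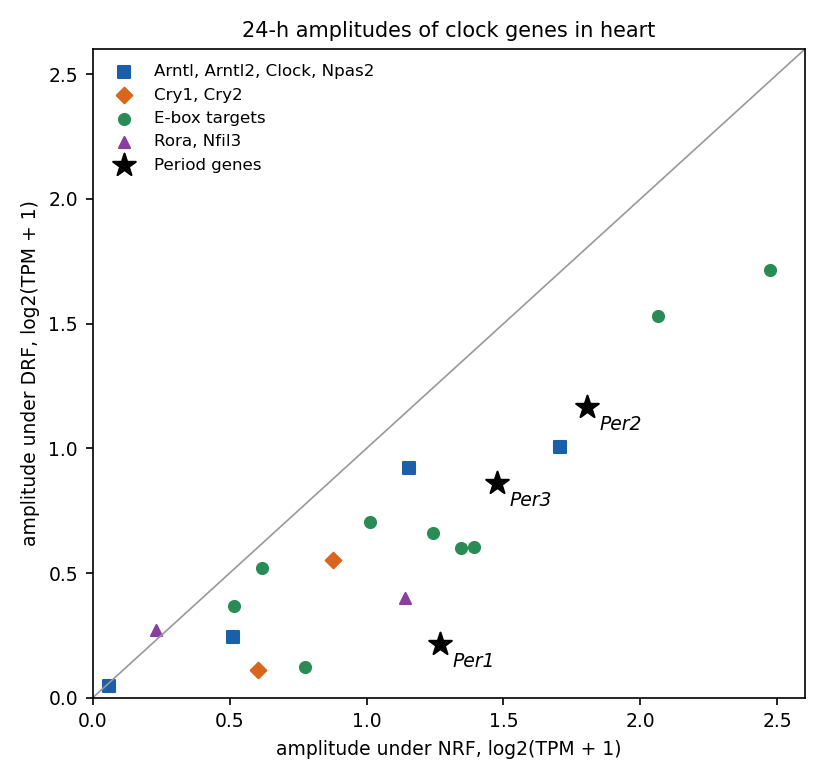
Amplitude of the 24-h fit under DRF against that under NRF (log2(TPM + 1), both axes) for Per1, Per2 and Per3 (stars) and other clock genes (colours by list); the line marks equal amplitudes. The Period genes all lie under the line, with Per1 farthest from it at 1.27 against 0.22.

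Other genes of the loop were read from lists chosen with earlier results of these data known. The counts below stand beside the shares over all tested genes, of which 37.3% were rhythmic under NRF, 32.5% under DRF and 17.7% in both, and 27.6% had a called difference in rhythm. Each list is also given with its median log2 amplitude ratio, which was -0.05 over all 13872 tested genes, 7210 of which had a lower amplitude under DRF. Of the 4 activator genes (Arntl, Arntl2, Clock and Npas2), which encode the proteins that PER represses, 3 were rhythmic in both regimens and had a called difference in rhythm (median ratio -0.54). Arntl, in antiphase to the Period genes, peaked at ZT0.859 under NRF and ZT23.2 under DRF, with amplitudes of 1.70 and 1.01. Clock changed from an amplitude of 0.51 to 0.24, and Npas2 from 1.15 to 0.92.

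The cryptochromes, the partners of PER in repression, both had a called difference in rhythm (median ratio -1.55). Cry1 peaked at ZT19 under NRF and ZT16.2 under DRF, with amplitudes of 0.88 and 0.55, and its mean level fell by 0.26 on the log2 scale (limma adjusted p = 0.00342). Cry2 changed from an amplitude of 0.60 to 0.11 and was not called rhythmic under DRF (limma adjusted p = 0.0564).

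Of 9 other E-box targets, all were rhythmic under NRF, 8 under DRF, and 8 had a called difference in rhythm, with a lower DRF amplitude in 9 of 9 (median ratio -0.53). Dbp, a D-box activator, peaked at ZT11.3 and ZT9.19 with amplitudes of 2.47 and 1.71. Nr1d1, a repressor of Arntl, peaked at ZT8.15 and ZT7.37 with 2.06 and 1.53. Nr1d2 changed from 1.39 to 0.60, and Ciart, a repressor of CLOCK and BMAL1, from 1.34 to 0.60 with a mean level lower by 0.78 (difference -0.78, limma adjusted p = 0.000193). All 8 targets rhythmic in both regimens shifted by up to 4 h, as did 1283 of the 2462 tested genes rhythmic in both. The median absolute shift was 2.02 h for these targets and 3.81 h for those 2462 genes. Of Rora, Rorb and Nfil3, which act on the ROR element of Arntl or on D-boxes, 2 passed the filter on low values, and both had a called difference (median ratio -0.64). Nfil3 changed from an amplitude of 1.14 to 0.40, and Rora from 0.23 to 0.27.

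Genes whose products act on PER proteins had small amplitudes. Of 10 genes for kinases, phosphatases and ubiquitin ligase subunits that act on PER proteins, 2 were rhythmic under NRF, 2 under DRF and 0 in both by limma, and 3 had a called difference in rhythm (median ratio 0.14). Csnk1d, the casein kinase 1 delta gene, had amplitudes of 0.07 and 0.09, Fbxw11, a beta-TrCP gene, 0.09 and 0.04, and Ppp1cc 0.05 and 0.08. Of 12 genes listed here with PER complexes, 7 were rhythmic under NRF, 3 under DRF and 1 in both, and 5 had a called difference (median ratio -0.22). Their presence in PER complexes was not examined here. Cipc, a repressor of CLOCK, changed from 0.44 to 0.08, Sfpq from 0.16 to 0.15, the latter not called (limma adjusted p = 0.0759), and Sin3a from 0.14 to 0.11.

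Lists of signals known to act on Period promoters were mixed. Of 12 genes of the cAMP response, 3 were rhythmic under NRF, 4 under DRF and 1, Creb1, had a called difference in rhythm (0.17 to 0.10, median ratio of the list 0.03). Of 10 tested glucocorticoid response genes, the fit called 7 under NRF and 6 under DRF, and 7 had a called difference (median ratio -0.25). Mt2, a metallothionein, moved its peak from ZT12.8 to ZT20.9 at amplitudes of 0.88 and 1.00, Cdkn1a changed from 0.52 to 0.84, and Zbtb16 changed from 1.26 to 1.01. In the temperature response list the 24-h fit called 10 of 10 genes under NRF and 4 under DRF, and 6 had a called difference (median ratio -1.14). Cirbp, a cold-inducible RNA-binding protein, moved from ZT8.20 to ZT3.33, and the chaperone genes Hsph1 and Hsp90aa1 changed from 0.60 to 0.22 and from 0.60 to 0.17.

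Within groups the deviations of Per1 had a median r of 0.463 with the 10 glucocorticoid response genes, highest for Klf9 at 0.771, beside a median of 0.203 with all tested genes. For Per2 the median with that list was 0.358 (all genes 0.149), and for Per3 0.141 (all genes 0.22). With the 12 cAMP response genes the medians were 0.28, 0.0576 and 0.127 for Per1, Per2 and Per3 (all genes 0.203, 0.149 and 0.22). For Per1 the values of that list ran from -0.186 to 0.686, the highest for Sik1. With the 9 E-box targets they were 0.605, 0.48 and 0.644. Each value is over 56 libraries, which share preparation and depth within a pair of genes.

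Markers of other cell types were set beside these results. Summed markers of atrial muscle ranged from 128 to 4268 TPM under NRF (median 604) and from 94.4 to 5438 under DRF (median 1787). Each atrial marker had a higher mean level under DRF, by 0.79 to 1.26 (log2), with 0 of 4 called (limma adjusted p = 0.0766 to 0.101). Haemoglobin and other red cell genes summed to 1670 to 42620 (median 7057) and 1860 to 66810 (median 7196), with 0 of 5 called for mean level by limma. Both sums spread widely within each regimen. Endothelial markers summed to 394 to 665 TPM under NRF and 328 to 573 under DRF, with 4 of 4 called lower under DRF. Fibroblast markers summed to 358 to 560 and 335 to 568 (3 of 4 lower), smooth muscle markers to 206 to 468 and 169 to 340 (1 of 4 lower), leukocyte markers to 25 to 53.9 and 22.9 to 48.3 (2 of 4 tested lower) and adipocyte markers to 11.4 to 167 and 4.03 to 180 (0 of 3 tested). Of the 5 cardiomyocyte markers 1 was higher and 1 lower. Over all tested genes 24.2% were called lower and 1.69% higher under DRF. Their part in the Period results was not tested.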

How the data were processed

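Hearts of 56 samples (14 groups of 4) were read from 1 deposited table. According to the submitters' processing notes the authors aligned reads to mm10 with HISAT2 2.0.5 and counted them with featureCounts 1.5.0-p3. The annotation release and the use of strand are not given in the sources used here. The deposited values, named TPM by the authors, are not linear: each is a library constant times log2(1 + scaled reads) divided by exon length, a unit of its own. The design had assumed linear TPM. Whole reads were therefore recovered (99.9996% of 1278974 values up to 100000 reads within 0.1 of a whole read), with union exon lengths from GENCODE (GRCm38) or a searched length (831 genes), and TPM was recomputed. Of 22864 listed genes 1 could not be resolved and was left out. No molecular identifiers are named, so PCR copies are not told from molecules.

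The 13872 genes that averaged 1 TPM or more across all libraries were tested on log2(TPM + 1), a scale that understates changes of low genes, with limma 3.58.1 (R 4.3.3; moderated tests with a trend; adjusted p under 0.05 called). The 24-h fit stands in for MetaCycle and CircaCompare, which the study used. Phase and amplitude errors are delta-method values, with 95% intervals, and their permutations used numpy 2.4.6. Such intervals are only approximate where an amplitude is near 0, which covers the DRF phase and amplitude of Per1 and its amplitude ratio. The test code was checked on simulated data. Named genes were the 3 members, the 5 genes with the highest Pearson r to each, Arntl, Cry1, Dbp and Nr1d1, and, per list, up to 3 genes with the largest amplitude of the difference in rhythm among those called. The members and lists were chosen with earlier results of these data known. Some genes are not reported here. Alternatives covered the pseudocount (0.1), no filter, median-of-ratios scaling, limma voom, the deposited values, a replicate block, and leaving out each replicate number, ZT or library. Leaving out single libraries for results other than single times was chosen after seeing the data.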

Additional observations from a re-analysis of the deposited data

Results flagged for a closer look

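A library stood apart from the other 3 of its group by Dixon's ratio in 5 of 42 groups, counted for each gene. For normally distributed values about 1 in 20 would be reached. The ratio was taken on TPM, and no share over all tested genes was computed, so an excess cannot be read from this count. For Per1 these were replicate 1 of DRF at ZT16 with 30.03 TPM (others 10.3 to 12.5), replicate 4 of DRF at ZT20 with 18.4 TPM (others 12.5 to 12.7) and replicate 3 of NRF at ZT12 with 49.8 TPM (others 41.9 to 43.0). For Per2 it was replicate 1 of DRF at ZT20 with 4.92 TPM (others 6.68 to 6.91), and for Per3 replicate 2 of DRF at ZT20 with 2.96 TPM (others 3.88 to 4.01). The 3 libraries that stood apart at ZT20 under DRF were different ones for each gene.

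The rhythm differed between regimens, by a test of the difference itself, for all 3 genes. The amplitude of the difference was 1.05 for Per1, 0.85 for Per2 and 0.86 for Per3 (log2, limma adjusted p = 0.00117, 4.78e-05 and 1.3e-07), beside 27.6% of all tested genes called.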

How the results depend on the processing

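Of 75 results recomputed under up to 73 alternatives, 60 kept their side of the threshold and 54 also their direction in all that were run. The cause of the changes was not tested. Of the rhythm results, the Per1 amplitude under DRF passed the test without ZT0 (0.46), and its 12-h component did so without replicate 1 (0.67). The Per1 difference in rhythm missed it without ZT12 (0.86) and without replicate 2 (0.90; range without each replicate or library 0.90 to 1.26). The Per1 phase shift passed the threshold of the permutation test with ZT4 left out, at -4.89 h, and with ZT8 left out, at 4.11 h. It was -0.181 h without ZT0 (-1.31 to 1.60 h without each replicate or library). The null hypothesis of that test covers amplitude too, and Per1 amplitude differed between regimens. Passing it therefore need not mean a shift in phase. The Per3 mean level passed with limma voom (0.23), and the uncalled Per2 mean level turned to -0.0146 without ZT4. The change of any shape in Per1 under DRF missed the threshold without replicates 2, 3 or 4 or 1 library at ZT4 (range 1.25 to 1.72).

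Of the single-time calls, Per1 and Per3 at ZT0 were lost without replicate 2 or 3. Per1 at ZT12 and ZT24 depended on most libraries, as given with them, and was lost without a filter on low values, at -1.16 (limma adjusted p = 0.0589) and 1.18 (0.0506), and ZT12 with a pseudocount of 0.1 (0.0526). Per3 at ZT12 was lost without replicate 2 (0.0509) or 3 (0.403), or 1 library of the latter, and Per3 at ZT16 passed without replicate 1 or its DRF library. The food-matched Per1 call of DRF ZT12 against NRF ZT0 was lost without a filter (limma adjusted p = 0.0635), without replicate 2 or 3 and without 7 single libraries. Uncalled differences that changed sign without a replicate or library were those of Per1 at ZT8 (-0.22 to 0.68), Per2 at ZT24 (-0.20 to 0.16), Per1 for DRF ZT20 against NRF ZT8 (-0.79 to 0.11), Per2 for DRF ZT8 against NRF ZT20 (-0.389 to 0.0324) and Per2 for ZT24 against ZT0 under NRF (-0.14 to 0.27).

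The labels do not say whether replicate numbers shared between groups pair the samples. Same-numbered libraries had a mean correlation of deviations of 0.0171, and differently numbered ones -0.00567. Of the same-numbered pairs 92 of 364 were over 0.1, and 21 of 56 libraries correlated best with their own number. These values are small but slightly higher within a number, so weak sharing by number is not excluded. With a replicate block the Per1 difference in rhythm was 1.05 (limma adjusted p = 0.00109), and the block brought 2 food-matched Per1 differences past the threshold, DRF ZT4 against NRF ZT16 (-1.12, adjusted p = 0.0408) and DRF ZT8 against NRF ZT20 (1.14, 0.0413). The other settings that did so are given with these results. The block changed no other call.

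Sampling every 4 h limits the timing of peaks, and 4 libraries a group with a Per1 SD of 0.53 limit single-time tests of that gene.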
